A study of Mus musculus with 162 samples.

Results

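The 41 genes described here act in the cell division cycle, and they were examined in neurons of the late mouse embryo, most of which no longer divide. They were taken from a list by symbol: 21 genes of mitosis, 12 of DNA replication and entry into it, 5 of cyclin D and its kinases, and 3 cyclin-dependent kinase inhibitors. All 41 of them were found among the 22879 genes of the count table by Ensembl identifier and in the normalized table. The question was whether Cenpf, which is abundant in Cajal Retzius cells, comes with other cycle genes.

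A dividing cell makes cycle proteins in order. D cyclins with Cdk4 or Cdk6 start the cycle, E cyclins with Cdk2 and the Mcm helicase open DNA replication, and cyclins A and B with Cdk1, the Aurora and Polo kinases and the kinetochore proteins run mitosis. Inhibitors such as p21, p27 and p57 hold these kinases off, and neurons keep some of them after their last division. Cajal Retzius cells are early born neurons of the cortical surface that secrete Reelin and are past their last division. Cenpf encodes a large protein of the kinetochore and nuclear envelope that peaks in mitosis and also binds Nde1, Ndel1 and the mitochondrial Miro proteins.

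Cytosol was drawn into patch pipettes from 162 cells, each a library of its own, of mouse embryos aged E17.5 to E18.5, and its RNA was sequenced. The cells came from 3 Cre driver lines: 22 from the Lhx6 line, 18 from the Nex line (Nex is Neurod6) and 122 from the Htr3a line. The submitters passed 148 cells and failed 14. The type labels of passed cells were Cajal Retzius (12 cells), VZ-derived (11 cells), GABAergic (4 cells), MGE-derived 1 (18 cells) and MGE-derived 2 (24 cells), and further CGE-derived (11 cells), Glutamatergic 1 (33 cells), Glutamatergic 2 (13 cells) and Undefined (22 cells). The abbreviations are not spelled out in the labels. The Htr3a line gave every Cajal Retzius and every CGE-derived cell. No label gives a treatment, a reporter allele, an animal, a litter or a culture. A group therefore counts as 1 sample, no difference was tested, and driver line, animals and batch cannot be told apart.

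Passed cells held 1710224 to 24836041 counts (median 9463972.5). Levels are CPM, a count scaled to a cell total of 1e6. They depend on gene length, so levels of different genes are to be compared per kilobase of exon. Shares of counts are also given, and in these long genes weigh more. For a log2 difference, log2(CPM + 1) was averaged over the cells of each group and the averages were subtracted; it is given for genes seen in at least 10% of cells in one group or the other. It is called past the fold at 1 or more in either direction. Intervals are 95% and cover counting error only, not the spread between cells. Those of levels treat each read as independent. Without molecular identifiers several reads can come from 1 molecule, so the intervals of levels may be too narrow even for counting error. Cell numbers follow accession order within a label.

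The type labels were checked against marker lists. Cajal Retzius cells held 5 to 12 of 13 Cajal Retzius markers at 5 CPM or more (median 10) and 8 to 10 of 12 pan-neuronal markers. The cell with 5, cell 12, also held 6 of 10 GABAergic markers at 2762 CPM in sum, with Lhx6 at 595 CPM. Cell 10 held 4 GABAergic markers, with Lhx6 at 133 CPM, cell 9 held 1 and the other cells of the label 0. All of these cells were kept in the Cajal Retzius group. VZ-derived cells held 1 to 10 of 18 radial glia markers (median 2) and 7 to 12 of 12 pan-neuronal markers (median 9), so neuronal markers outnumbered progenitor markers in most of them. Markers of microglia, a dividing cell type of the embryonic brain, were present in part of the cells. Of the passed cells 34 held at least 3 of 13 microglia markers at 10 or more counts, among them 4 Cajal Retzius cells. The counts of members past the fold are given with and without these cells. In Cajal Retzius cells so are the members that were past the fold with all cells kept.

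Cenpf (ENSMUSG00000026605) lies on the minus strand of chromosome 1 from 189640606 to 189688086 of build GRCm38, with 15433 exon bases and no overlap with another gene. Of its stretches of 50 bases 0.270% occur in other transcripts, so few of its reads could be shared. It stood at 613 CPM in Cajal Retzius cells (interval 609 to 616), and 11 of 12 cells held a count. Undefined cells followed at 72.4 CPM, with a count in 6 of 22 cells. The other labels were lower, at 13.3 CPM in CGE-derived, 11.8 in GABAergic, 4.11 in MGE-derived 2 and 2.89 in MGE-derived 1 cells. Glutamatergic 2 cells stood at 0.748, VZ-derived cells at 0.169 and Glutamatergic 1 cells at 0.00680 CPM. Below Cajal Retzius cells the order of the labels does not exceed their spread, because the median cell of each of these labels had 0 CPM. Without the cell of highest level, CGE-derived cells stood at 0.00930 CPM, MGE-derived 1 cells at 0.0143 CPM and GABAergic cells at 0 counts. The Undefined label kept 56.4 CPM and the Cajal Retzius label 559 CPM without theirs.

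The promoters of Cenpf and 2 other members show what they share in sequence. Many genes of mitosis carry a cell cycle homology region, TTTGAA, beside CCAAT boxes, which bind the DREAM complex and NF-Y. The windows reach from 250 bases before to 50 bases after the start (RefSeq, build GRCm38.p6), and both motifs and their reverse complements, TTCAAA and ATTGG, are in capitals. Cenpf is shown as the gene the results turn on, Mki67 as another mitosis member and Cdk4 as a member seen in most cells. They are chr1:189688037-189688336 on the minus strand, chr7:135716330-135716629 on the minus strand and chr10:127063285-127063584 on the plus strand.
Cenpf: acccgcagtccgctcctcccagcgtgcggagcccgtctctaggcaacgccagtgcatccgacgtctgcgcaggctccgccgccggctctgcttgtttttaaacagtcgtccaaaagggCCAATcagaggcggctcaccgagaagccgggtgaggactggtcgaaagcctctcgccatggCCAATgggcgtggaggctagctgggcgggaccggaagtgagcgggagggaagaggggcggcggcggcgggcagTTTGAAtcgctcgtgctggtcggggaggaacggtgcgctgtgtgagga
Mki67: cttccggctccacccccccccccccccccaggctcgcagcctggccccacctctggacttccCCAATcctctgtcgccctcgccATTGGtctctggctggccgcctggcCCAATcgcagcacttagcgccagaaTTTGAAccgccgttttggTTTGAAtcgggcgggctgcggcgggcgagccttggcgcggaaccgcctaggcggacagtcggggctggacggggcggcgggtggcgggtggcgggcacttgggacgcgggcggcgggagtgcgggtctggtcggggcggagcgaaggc
Cdk4: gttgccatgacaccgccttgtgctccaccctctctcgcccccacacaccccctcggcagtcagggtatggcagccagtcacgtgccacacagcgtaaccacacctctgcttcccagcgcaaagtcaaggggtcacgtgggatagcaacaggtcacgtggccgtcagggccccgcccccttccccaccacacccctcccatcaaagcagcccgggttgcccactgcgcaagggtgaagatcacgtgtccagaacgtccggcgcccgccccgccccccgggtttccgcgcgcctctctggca

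The Cenpf window held 1 TTTGAA and 2 CCAAT motifs, the Mki67 window 2 and 3, and the Cdk4 window neither. Both motifs stood in 1 window for 12 of the 18 mitosis members with an entry, against 7.97% of 27025 genes. With or without the other motif, TTTGAA was found in 13 of the 18, against 20.2% of genes, and CCAAT in 15 of the 18, against 41.1% of genes. An E2F motif, TTCCCGC, was found in 3 of 10 replication members and 0 of 18 mitosis members, against 5.29% of genes. These matches describe the letters of the windows, not binding.

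Cell by cell, Cenpf was high in nearly every Cajal Retzius cell. From cell 1 to cell 6 the levels were 1254, 1160.2, 0, 465, 475 and 921 CPM. From cell 7 to cell 12 they were 453, 1231, 248, 241, 502 and 646 CPM. Cell 3 had no count of Cenpf at 16119044 counts in all, and every other Cajal Retzius cell had at least 2041 counts of it. Of the 77 other neurons of the Htr3a line (all MGE-derived, CGE-derived, GABAergic and Glutamatergic cells) 13 had a count, and the highest, CGE-derived cell 7, reached 158 CPM. The 11 Cajal Retzius cells with Cenpf thus lay above all 77 neurons, and cell 3 lay with the neurons that had none. Mean log2(CPM + 1) was 8.45 ± 2.78 in Cajal Retzius cells and 0.56 ± 1.59 in other neurons (SD, n = 12 and 77 cells). The log2 difference was 7.88, which was larger than the spread between cells.

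**Figure D1:**
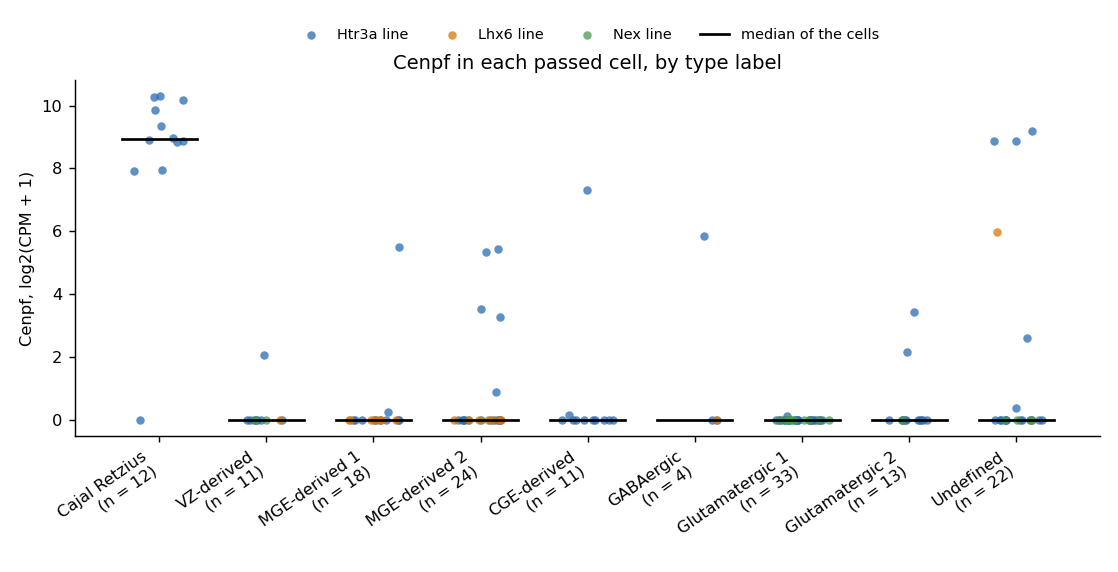
Cenpf level as log2(CPM + 1) in each passed cell (points, coloured by driver line), with the median of the cells of each type label (bars). The 11 Cajal Retzius cells with a count lie between 241 and 1254 CPM, and the median cell of every other label is at 0.

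Outside the Cajal Retzius label 4 passed cells reached 100 CPM of Cenpf. Undefined cell 16 stood at 468 CPM and held 9 of 13 Cajal Retzius and 12 of 13 microglia markers. Undefined cell 17 stood at 470.4 CPM and held 8 Cajal Retzius markers and 0 microglia markers. Undefined cell 10 stood at 582 CPM and held 1 of these markers and 8 of 13 microglia markers. CGE-derived cell 7 held 2 Cajal Retzius markers. In the other direction, VZ-derived cell 2 held 9 Cajal Retzius markers at 8458 CPM in sum and had no count of Cenpf.

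Cenpf did not come with the rest of the mitosis members in Cajal Retzius cells. Only Cenpf and Ccna2, the cyclin A gene, had a count in at least 50% of these cells, and the other 19 mitosis members were seen in at most 4 of 12. Ccnb2 (cyclin B), Aurkb (Aurora B kinase), Birc5 (survivin, its partner), Hmmr (a spindle protein) and Anln (anillin, of the cleavage furrow) had 0 counts in all 12 cells, with 3 counts equal to 0.0192 CPM of the group. Cenpe, a kinetochore motor, had 6 counts, Cdc20, an activator of the anaphase-promoting complex, 8 and Ccnb1 19, each in cell 7 alone. Over all 41 members, 10 had a count in at least 50% of Cajal Retzius cells, where 36.8% of all genes with a count in any passed cell did.

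The number of mitosis members at 5 CPM or more was 1 to 9 of 21 in Cajal Retzius cells, with a median of 2. Over all 148 passed cells it was 0 to 21, with a median of 1. Leaving Cenpf out, the median of Cajal Retzius cells was 1 of 20. Cenpf gave 71.9% of the counts of all mitosis members in these cells, and 49.3 to 100% in each of the 11 cells that had it. These shares are not corrected for length, and Cenpf has the most exon bases of the mitosis members. Per kilobase of exon its share of their summed levels was 19.3 to 100%. In Cajal Retzius cell 4 Cenpf was the only mitosis member with a count, and in cells 1, 2 and 12 Ccna2 was the only other at 5 CPM or more.

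Single Cajal Retzius cells had other mitosis genes. Cell 3, the cell with no Cenpf, had 3488 counts of Mki67 (216 CPM), the gene of the Ki-67 antigen, and no other mitosis member at 5 CPM or more. Cell 8 held 9 mitosis members, with 420 CPM of Aurka (Aurora A kinase), 167 of Prc1 (a midzone microtubule bundler), 160 of Top2a (topoisomerase II), 156 of Nusap1 (a spindle protein), 152 of Bub1 (a checkpoint kinase) and 112 of Cdk1. That cell also held 9 of 13 microglia markers, against 0 to 5 in the other 11 cells of the label; the part of these cells in the result was not tested. Cell 6 held 5 mitosis members, among them Plk1 (Polo-like kinase) at 64.1 CPM, and cell 10 held 5, among them Bub1b (a checkpoint protein) at 50.1 CPM. These numbers include Cenpf, and without it cell 8 held 8 and cells 6 and 10 held 4 each. Cell 3 had 4, cell 6 had 2 and cell 10 had 4 microglia markers. In sum these markers stood at 1087 CPM in cell 3, 23.6 in cell 6, 1266 in cell 8 and 252 in cell 10. The part of microglia RNA in the Mki67 counts of cell 3 was not tested.

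**Figure D2:**
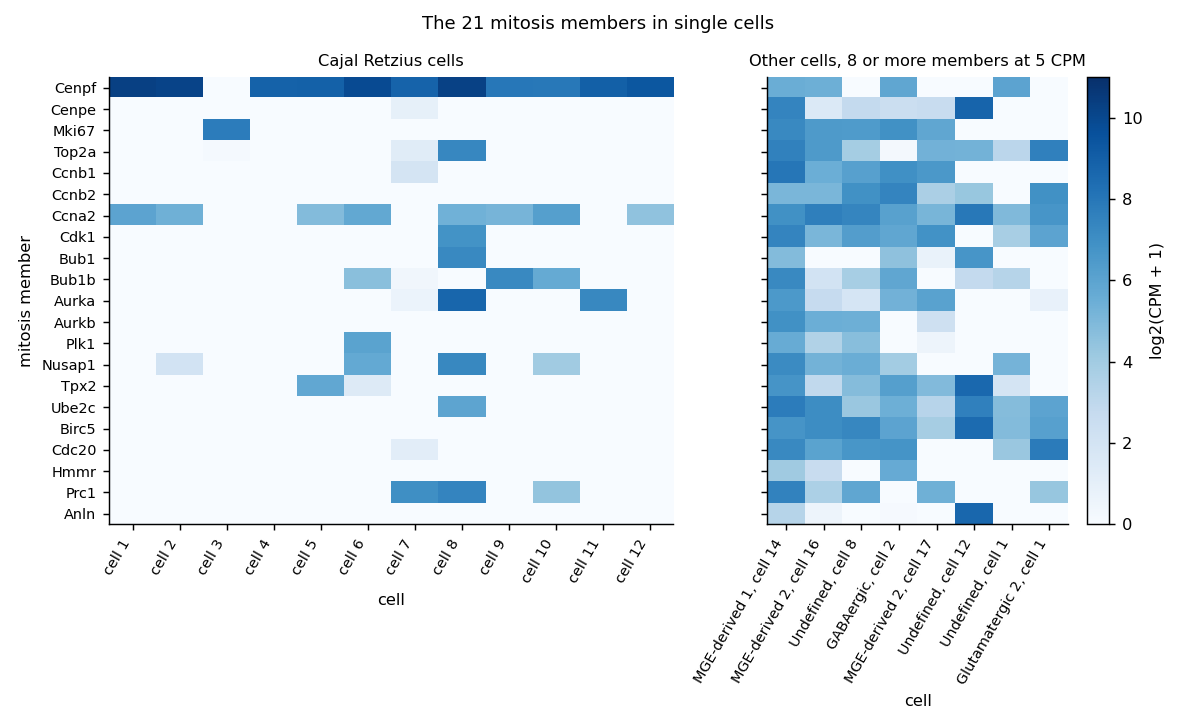
Levels of the 21 mitosis members as log2(CPM + 1) in the 12 Cajal Retzius cells (left) and in the 8 other passed cells with at least 8 of these members at 5 CPM or more (right). Cenpf forms an almost unbroken row in Cajal Retzius cells, Ccna2 is present in 8 of 12, and most other rows are empty there.

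Ccna2 needs care. It was at 29.9 CPM in Cajal Retzius cells (8 of 12 cells) and at 38.5 CPM in the other Htr3a neurons (42 of 77). They differed by 0.56 on the log2 scale, within the spread between cells (SD 2.70 and 3.03). Its exons share 12.5% of their bases with Exosc9 on the other strand, and 83 of the 87 passed cells with Ccna2 also had Exosc9. Exosc9 had a count in 91 of all 148 passed cells. Whether the counting used strand is not given in the sources used here, so it is not known to which gene reads of the shared 12.5% were assigned. Reads of the other exon bases of Ccna2 are not affected by this overlap. Without Ccna2, a choice made after seeing the data, the median number of other mitosis members in a Cajal Retzius cell was still 1.

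Against the other Htr3a neurons 35 members were measured in Cajal Retzius cells. Of these 8 were higher past the fold, against 30.6% of all 13331 genes, and 1 was lower, against 7.01%. The members' median was 0.15 and that of all genes 0.40, so by this measure the members' median lay below that of all genes. The background depends on the measure. By summed counts 13.3% of all genes were higher and 27.8% lower, with a median of -0.206. Cajal Retzius cells held a median of 13692912.5 counts and 6714 genes, against 9463972.5 and 5363 over all passed cells. With every cell thinned to the same counts, 32.1% of all genes were higher and 7.42% lower, with a median of 0.475. The part of the number of genes seen in these shares was not tested. Cells with microglia markers were 4 of the 12 and 17 of the 77, and without them (8 against 60 cells) the difference of Cenpf was 9.14. Then 30 members were measured, with 11 higher and 0 lower, against 35.2% and 7.56% of all genes. Leaving these cells out gave 1.29 for Bub1b, 1.51 for Mcm6, 1.75 for Mcm7, 2.67 for Pcna, 4.19 for Ccnd3, 2.78 for Cdkn1b and 3.61 for Cdkn1c. With Cenpf these are the 8 members that were higher with all cells kept. The further members that were higher only without the cells with microglia markers are not named here. Among 15 measured mitosis members 2 were higher, Cenpf and Bub1b. Bub1b stood at 15.5 against 4.39 CPM, in 4 of 12 and 8 of 77 cells, and its log2 difference of 1.01 was 0.58 without the cell of highest level in each group.

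DNA replication members were seen in part of the Cajal Retzius cells. Pcna, the sliding clamp of DNA polymerase, had a count in 10 of 12 Cajal Retzius cells and 46 of 77 other neurons, with medians of 105 and 25.9 CPM and a log2 difference of 1.81. Mcm7, a helicase subunit, had a count in 10 of 12 and 37 of 77 cells and a difference of 1.77. The direction of both depends on the measure. By summed counts Pcna stood at 109.9 against 129.5 CPM and Mcm7 at 82.1 against 95.2 CPM, which is lower in Cajal Retzius cells. Both genes share stretches with processed pseudogenes (19.1% and 23.3% of 50-base stretches). Mcm7 also shares 1.45% of its exon bases with Cops6 on the other strand. Cops6 had a count in 79 of the 80 passed cells with Mcm7, but also in 122 of all 148 passed cells.

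Mcm6, a further helicase subunit, was at 0 to 412 CPM in Cajal Retzius cells (median 32.2, 6 of 12 cells) and at 0 to 541 CPM in other neurons (median 0, 29 of 77). Its log2 difference was 1.58, within the spread between cells (SD 3.85 and 3.28), and the groups overlapped throughout. The other 9 replication members were not past the fold. Mcm2 and Mcm3 were each seen in 1 of 12 Cajal Retzius cells, Mcm5 in 2, Mcm4 and Ccne1 (cyclin E) in 3, and Rrm2 and Tyms, enzymes of nucleotide supply, in 4. Ccne2 was seen in 5 of 12 at up to 12.1 CPM and Cdk2, the kinase of cyclin E, in 2 of 12 at up to 0.292 CPM.

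The D cyclins and their kinases split. Ccnd3, cyclin D3, had a median of 74.0 CPM in Cajal Retzius cells (0 to 202, a count in 11 of 12) and of 0 in other neurons (0 to 571, a count in 26 of 77). Its log2 difference was 3.17, about the size of the spread between cells (SD 2.94 and 2.87). The ranges overlapped, and by summed counts the difference was 0.59, at 73.2 against 48.4 CPM. Ccnd3 shares 4.11% of its exon bases with Bysl on the other strand, and 55 of 59 cells with Ccnd3 also had Bysl. Bysl had a count in 77 of all 148 passed cells.

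Cdk4, a kinase of D cyclins, was seen in all 12 Cajal Retzius cells (18.1 to 386 CPM, median 148) and in 67 of 77 other neurons (0 to 965 CPM, median 295). It differed by 0.15, with much less spread between Cajal Retzius cells (SD 1.13) than between other neurons (SD 3.10). Cdk6, the other kinase of D cyclins, had 0 counts in 12 Cajal Retzius cells, where 3 counts would make 0.0192 CPM of the group. It had a count in 24 of 77 other neurons, at 21.3 CPM of summed counts. Its log2 difference of -1.14 was -0.32 without the cells that held microglia markers (8 against 60 cells). Ccnd1 was seen in 2 and Ccnd2 in 5 of the 12 Cajal Retzius cells, against 25 and 36 of the 77 other neurons.

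Of the 3 kinase inhibitors 2 were higher in Cajal Retzius cells, where 30.6% of all genes were. Cdkn1c, which encodes p57, was at 0 to 301 CPM in Cajal Retzius cells (median 82.9, 10 of 12 cells) and at 0 to 243 CPM in other neurons (median 0, 24 of 77). Its log2 difference was 3.58 (SD 3.08 and 2.80), and summed counts gave 114 against 25.8 CPM, 4.42-fold higher. Of its exon bases 30.7% also belong to Gm44732 on the other strand, so part of its counts may be from that gene. Cdkn1b, which encodes p27, was at 0 to 112 CPM in Cajal Retzius cells (median 20.97, 11 of 12 cells) and at 0 to 275 CPM in other neurons (median 0, 36 of 77). Its log2 difference was 2.76 (SD 2.10 and 2.30), and it has no exon overlap. Cdkn1a, which encodes p21, was seen in 6 of 12 and 28 of 77 cells and differed by 0.92.

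**Figure D3:**
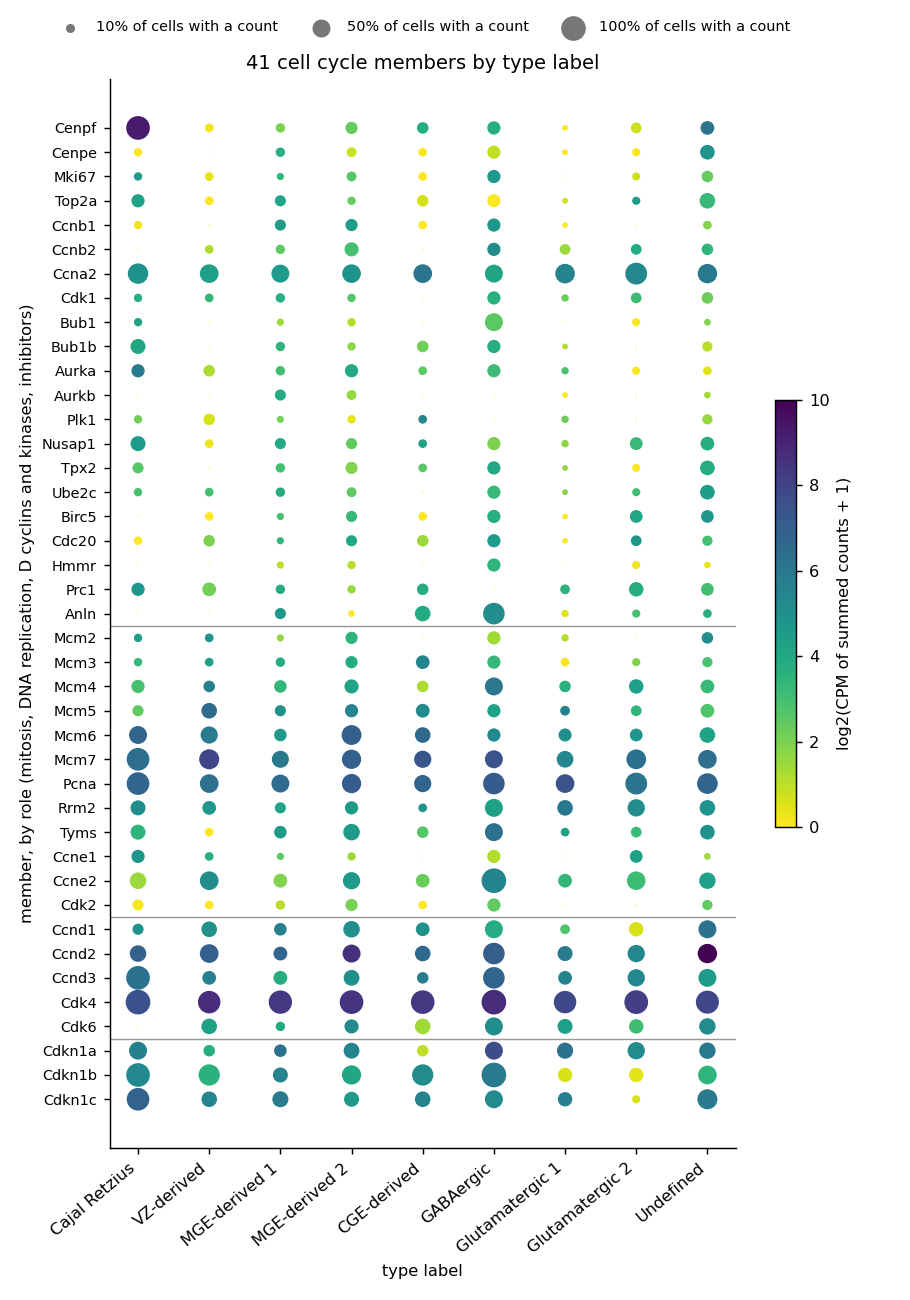
CPM of summed counts (colour, log2 scale after adding 1, with levels above 10 drawn as 10) and share of cells with a count (dot size) of the 41 members in each type label. Cenpf stands out among the mitosis members in Cajal Retzius cells, while Cdk4 is present in most cells of every label.

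Cycle genes outside the 41 members gave a like picture in Cajal Retzius cells. Of 68 further mitosis genes 55 were measured, 6 were higher and 0 lower, against 30.6% and 7.01% of all genes. Their median difference was -0.05, and that of all genes 0.40. Cit, which encodes citron kinase of the cleavage furrow and in brain also a shorter form without the kinase domain, was the highest of them. It had a count in all 12 Cajal Retzius cells (median 137, highest 1042 CPM) and in 26 of 77 other neurons (median 0, highest 252 CPM), and its log2 difference was 5.58 (SD 1.97 and 2.18). Racgap1, of the central spindle, was at 89.9 against 17.7 CPM in 7 of 12 and 19 of 77 cells (2.57). Fzr1, an activator of the anaphase-promoting complex that also acts in neurons, was at 294 against 229.5 CPM in 12 of 12 and 59 of 77 cells (2.20).

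Of 49 further replication genes 45 were measured, with 5 higher and 4 lower, against 30.6% and 7.01% of all genes, and a median of -0.06. Of 17 further brakes on the cycle 15 were measured, with 5 higher, 2 lower and a median of 0.10. This share of higher genes was close to the 30.6% of all genes. They included Ccng1, cyclin G1, at 112.5 against 44.5 CPM in 9 of 12 and 25 of 77 cells (3.46), and Rbl2, a relative of the retinoblastoma protein, at 71.6 against 38.9 CPM in 10 of 12 and 43 of 77 cells (2.40). Of the 5 genes of Cenpf binding partners 2 were higher, close to the 30.6% of all genes that were higher. Nde1 was at 22.9 against 4.28 CPM in 4 of 12 and 11 of 77 cells (1.52), and Rhot1, a Miro gene, at 137 against 112 CPM in 11 of 12 and 52 of 77 cells (1.88).

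The genes most like Cenpf in pattern over the 8 named type labels were sought by a correlation, which leaves the size of a difference aside. Only genes at 20 CPM or more in Cajal Retzius cells and seen in at least 50% of them entered. Of the other members only 9 passed this filter. By Pearson r of log2(CPM + 1) of summed counts over the 8 labels, among 6542 genes, they were Sh3glb2 (0.95), Arap1 (0.92), Wrap73 (0.91), Lrp10 (0.91), Pbrm1 (0.90), Clstn1 (0.90), Scamp1 (0.90), Hint1 (0.89), Plekha7 (0.89) and Ripk4 (0.89). Plekha7, of adherens junctions, stood at 168 CPM in Cajal Retzius cells and at most 2.52 CPM in any other named label. Ripk4, a kinase gene, stood at 171 and at most 1.31 CPM. The others stood higher in their next label. Sh3glb2 was at 223 against 154 CPM, Scamp1 at 438 against 343, Hint1 at 529 against 364 and Pbrm1 at 261 against 213. Arap1 was at 62.8 against 9.89 CPM, Wrap73 at 230 against 49.97, Lrp10 at 116 against 30.3 and Clstn1 at 928 against 267. The next label was MGE-derived 2 for Lrp10, Plekha7 and Ripk4, and GABAergic for the rest of the 10 genes. Of the 4 GABAergic cells 1 held Cenpf, cell 2, which also held 13 of 13 microglia markers. None of the 9 members was among these 10 genes: Cdkn1b had 0.60, Mcm6 0.57 and Ccna2 -0.00. The labels share libraries and depth, and 8 points are few.

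Mitosis members did occur together elsewhere, in few cells. Of 148 passed cells 15 held at least 5 of the 21 at 5 CPM or more: 3 of 12 Cajal Retzius, 2 of 18 MGE-derived 1, 4 of 24 MGE-derived 2, 1 of 4 GABAergic, 1 of 13 Glutamatergic 2 and 4 of 22 Undefined cells. None of the 11 VZ-derived, 11 CGE-derived or 33 Glutamatergic 1 cells did. Cenpf is 1 of the 21, and 2 of the 3 Cajal Retzius cells, cells 6 and 10, reached 5 only with it. Without Cenpf they held 4 each, and cell 8 held 8. In 39 passed cells no mitosis member reached 5 CPM.

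MGE-derived 1 cell 14 held all 21 mitosis members, such as Ccnb1 at 255 CPM, Ube2c (a ubiquitin enzyme of mitosis) at 213 and Cdk1 at 171. Cenpf was at 44.4 CPM there and gave 1.79% of the counts of the mitosis members. MGE-derived 2 cell 16 held 17 members, Undefined cell 8 held 16, GABAergic cell 2 held 15 and MGE-derived 2 cell 17 held 12. Cenpf was at 42.3 CPM in MGE-derived 2 cell 16 and 57.1 CPM in GABAergic cell 2, and had no count in Undefined cell 8 and MGE-derived 2 cell 17. Thus Cenpf was far lower in the cells with most mitosis members than in 11 of 12 Cajal Retzius cells.

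Microglia markers stood beside these genes. MGE-derived 1 cell 14 held 12 of 13 microglia markers at 5 CPM or more, MGE-derived 2 cell 16 held 12, Undefined cell 8 held 13, GABAergic cell 2 held 13 and MGE-derived 2 cell 17 held 13. These 5 cells also held 10 to 12 of the 12 pan-neuronal markers. Besides them Undefined cell 12 held 10 mitosis members, with 3 microglia markers and no Cenpf. It had 434 CPM of Cenpe, 397 of Anln and 394 of Tpx2, a spindle assembly factor. In the other direction 8 cells held at least 12 microglia markers, and 3 of them held fewer than 10 mitosis members. Without the 34 cells with microglia markers, 2 cells with at least 5 mitosis members were left, Cajal Retzius cell 6 and MGE-derived 1 cell 18. Cajal Retzius cell 6 reached 5 only with Cenpf and held 4 other mitosis members. MGE-derived 1 cell 18 held 6 members led by Aurkb at 84.7 CPM. The part of microglia RNA in the cells named here was not tested.

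**Figure D4:**
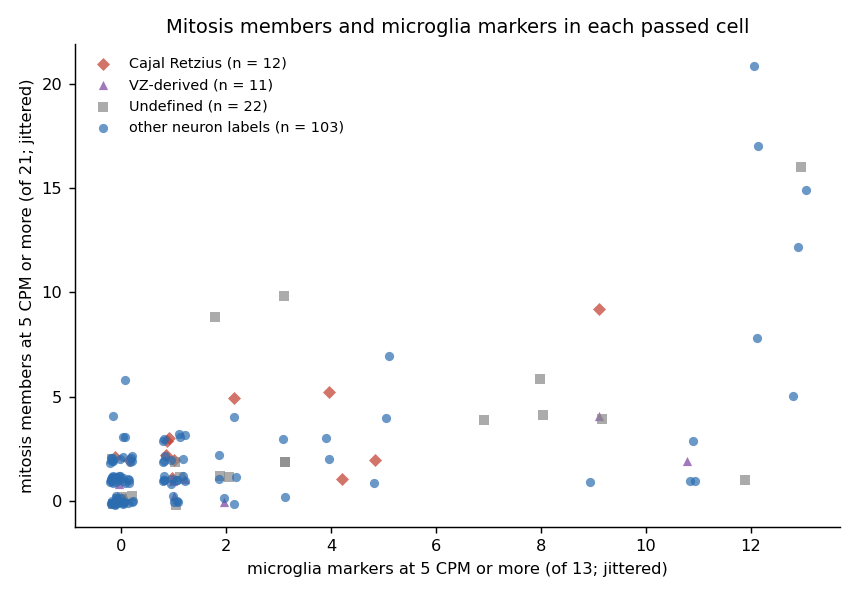
Number of the 13 microglia markers (horizontal) and of the 21 mitosis members (vertical) at 5 CPM or more in each passed cell, with points jittered. Of the 6 cells with at least 10 mitosis members 5 hold at least 12 microglia markers, and Cajal Retzius cells lie at 1 to 9 mitosis members.

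VZ-derived cells had few mitosis transcripts. They held 0 to 4 mitosis members at 5 CPM or more (median 1), and 5 of 11 held none. No count of 8 mitosis members was found in any VZ-derived cell. In the Htr3a line (8 cells against 77 neurons) 37 members were measured, of which 6 were higher, against 13.6% of 14208 genes, and 1 lower, against 12.3%. Of the 17 measured mitosis members 0 passed the fold (median -0.31, and -0.02 for all genes). Cenpf was at 0.220 against 4.61 CPM. As a share of cells, 7 of 41 members had a count in at least 50% of VZ-derived cells, against 23.3% of all genes.

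The 6 members higher in VZ-derived cells were 3 replication genes, 2 D cyclins and 1 inhibitor. Mcm7 stood at 264 against 95.2 CPM, in 6 of 8 and 37 of 77 cells, and its log2 difference was 2.92 (SD 3.77 and 3.49). Ccne2 stood at 43.9 against 13.7 CPM, in 6 of 8 and 31 of 77 cells (2.67). Of the 59 passed cells with Ccne2, 54 also had Ints8 on the other strand, which was seen in 69 of all 148 passed cells. Mcm5 (1.26), Ccnd1 (1.18), Ccnd2 (1.31) and Cdkn1c (1.46) were seen in 3 to 5 of 8 cells. Tyms was lower, with 1 count in 8 VZ-derived cells, against 18 of 77 neurons (-1.09). By summed counts Ccnd2 had the other sign (-0.15, at 158.6 against 176 CPM), which rests on 1 neuron at 6248 CPM. Without the highest cell of each group it stood at 132 against 108 CPM. VZ-derived cell 9 held 10 of 12 replication members at 5 CPM or more and 9 microglia markers. Of the further mitosis genes 60 were measured, with 2 higher and 0 lower, and of the further replication genes 45, with 6 higher and 4 lower. Cells with microglia markers were 2 of the 8 and 17 of the 77. Without them (6 against 60 cells) 24 members were measured, with 3 higher and 4 lower, against 16.4% and 22.0% of all genes. Without the cell of highest level in each group 2 of 37 were higher and 4 lower, against 7.15% and 24% of all genes.

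GABAergic neurons (labels GABAergic, MGE-derived and CGE-derived, 42 cells) were set against glutamatergic neurons (35 cells) within the Htr3a line. Of 38 measured members 7 were higher, against 6.95% of 13516 genes, and 1 was lower, against 13.4%. The members' median was 0.57 and that of all genes -0.03. Of the 3 inhibitors 2 were higher. Cdkn1b was at 33.03 against 0.504 CPM, in 27 of 42 and 9 of 35 cells. Its log2 difference was 1.95 (SD 2.68 and 1.02), and its highest glutamatergic cell had 20.8 CPM. Cdkn1c was at 43.3 against 4.68 CPM, in 19 of 42 and 5 of 35 cells (2.08). Cdkn1a was not past the fold, at 54.97 against 62.6 CPM, in 13 of 42 and 15 of 35 cells (-0.93).

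The other members higher in GABAergic neurons were 3 helicase genes, 1 D cyclin and Ccnb1. Mcm6 was at 90.3 against 25.8 CPM, in 20 of 42 and 9 of 35 cells (1.93), Mcm7 at 135 against 46.9 CPM (1.51) and Mcm5 at 44.2 against 29.7 CPM. Ccnd1 was at 42.6 against 4.88 CPM, in 18 of 42 and 7 of 35 cells (1.52), and its exons overlap those of LTO1. Most of the glutamatergic level was 1 cell: without the highest cell of each group Ccnd1 stood at 27.9 against 0.345 CPM. Ccnb1 was in 10 of 42 and 1 of 35 cells (1.17), and in 1 GABAergic cell it reached 463 CPM. Among the 10 cells were MGE-derived 1 cell 14 (255 CPM), GABAergic cell 2 (122 CPM), and MGE-derived 2 cells 17 (93.4 CPM) and 16 (43.0 CPM). These are cells given above as rich in microglia markers, and the part of microglia RNA in the Ccnb1 difference was not tested. Rrm2 was lower, at 24.6 against 53.0 CPM, in 11 of 42 and 16 of 35 cells (-1.48). Of the further mitosis genes 60 were measured, with 2 higher and 1 lower, of the further replication genes 45, with 2 in each direction, and of the further brakes 15, with 3 higher and 4 lower. Among all genes 6.95% were higher and 13.4% lower. Cells with microglia markers numbered 10 of 42 and 7 of 35. Without them 25 members were measured, with 5 higher and 4 lower, against 6.33% and 22.97% of all genes. Over all 3 lines 3 of 36 were higher, against 6.07% of genes.

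**Figure D5:**
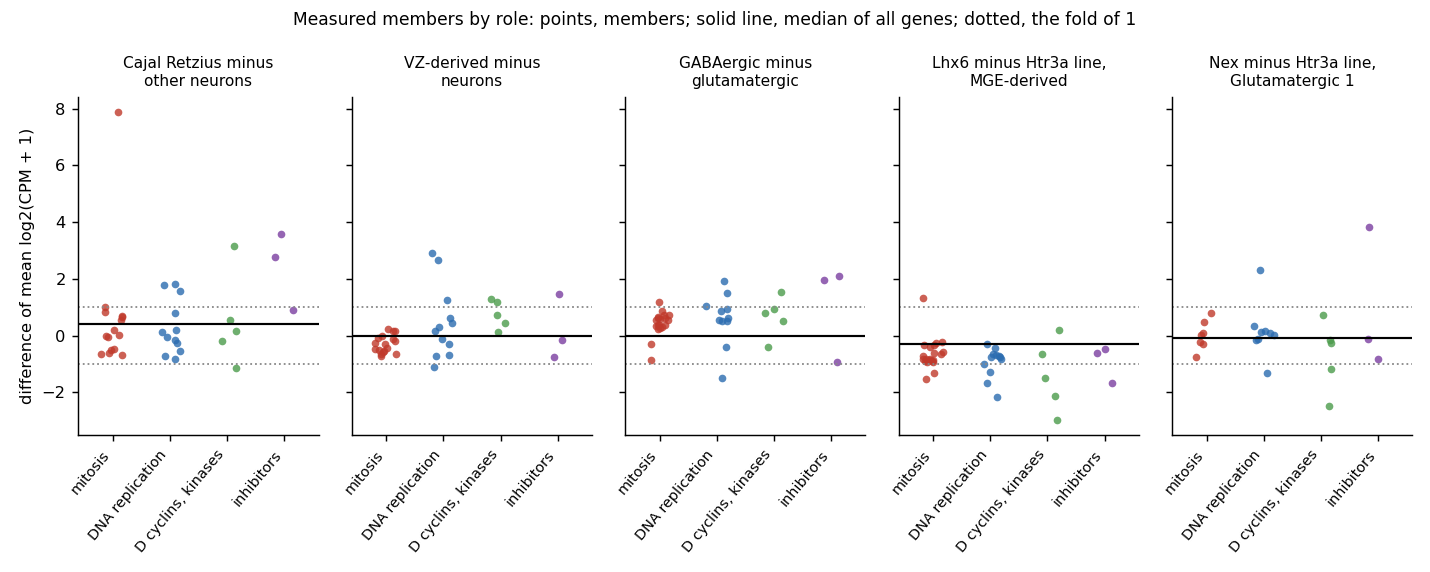
Difference of mean log2(CPM + 1) of the measured members in the 5 comparisons, by role (points), with the median over all genes (solid line) and the fold of 1 in either direction (dotted lines). Cenpf at 7.88 is far from the other mitosis members in Cajal Retzius cells, and most members lie below the median of all genes in the Lhx6 line.

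Within the MGE-derived labels the Lhx6 line (14 cells) was set against the Htr3a line (28 cells). All 41 members were measured, and 10 were lower, a share near the 20% of all 14147 genes that were lower. Higher was 1 member, against 9.01% of genes. The members' median was -0.75 and that of all genes -0.29. Ccnd2 was at 5.62 against 361 CPM, in 3 of 14 and 14 of 28 cells (-2.96), and its highest Htr3a cell had 6248 CPM. Mcm5 had 0 counts in 14 Lhx6 cells and 50.3 CPM in Htr3a cells, in 9 of 28 (-2.17). Ccnd1 had 5 counts in 1 of 14 Lhx6 cells and 51.2 CPM in 13 of 28 Htr3a cells (-2.13).

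The other lower members were Mcm6 (-1.68), Cdkn1c (-1.66), Ccnb1 (-1.52), Cdk6 (-1.50), Aurka (-1.32), Mcm4 (-1.30) and Mcm2, which lay at the fold. Cenpf, Mki67, Top2a and Cdk1 had 0 counts in all 14 Lhx6 cells and a count in 4 to 7 of 28 Htr3a cells. Ccna2 was the member higher in the Lhx6 line, at 42.9 against 21.2 CPM in 10 of 14 and 12 of 28 cells (1.32). Of the further mitosis genes 65 were measured, with 2 higher and 9 lower, and of the further replication genes 47, with 3 higher and 8 lower. Microglia markers differed as well: 12 of 13 were lower in the Lhx6 line, and 0 of 14 against 7 of 28 cells held at least 3 of them. Without those 7 cells 21 members were measured, 6 were lower, against 14.6% of genes, and Mcm2 had the other sign (0.01). The part of these cells in the difference between lines was not tested.

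Within the Glutamatergic 1 label the Nex line (10 cells) was set against the Htr3a line (23 cells). Of 24 measured members 2 were higher, against 14.3% of 12508 genes, and 3 lower, against 19.1%. None of the 7 measured mitosis members passed the fold. Cdkn1c was at 0 to 528.5 CPM in Nex cells (median 43.6, 6 of 10 cells) and at 0 to 166 CPM in Htr3a cells (median 0, 4 of 23), with a log2 difference of 3.81 (SD 4.05 and 1.85). Mcm7 was at 75.6 against 29.2 CPM, in 6 of 10 and 8 of 23 cells (2.33). Ccnd2 had 0 counts in 10 Nex cells and 76.8 CPM in Htr3a cells, in 11 of 23 (-2.47), Rrm2 was in 2 of 10 and 10 of 23 cells (-1.32), and Ccnd3 in 1 of 10 and 8 of 23 (-1.19). Of the further mitosis genes 36 were measured, with 1 higher and 4 lower, and of the further brakes 14, with 2 higher and 7 lower. Cells with microglia markers were 1 of the 10 and 3 of the 23. Without them (9 against 20 cells) 25 members were measured, with 3 higher and 4 lower, against 16.1% and 18.3% of all genes, and Cdkn1c differed by 3.43.

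Across type labels the remaining members can be summed up by their ranges. Cdk4 was at 180 to 431 CPM in every label and had a count in 131 passed cells, 90 of which also had Tspan31, with which it shares 19.7% of its exon bases. Tspan31 had a count in 90 of all 148 passed cells. Pcna was at 70.9 to 175 CPM and Mcm7 at 41.4 to 237 CPM. Per kilobase of exon, in Cajal Retzius cells, Cdkn1c was at 55.8, Cdk4 at 55.5, Pcna at 45.8, Cenpf at 39.7, Aurka at 24.3 and Mcm6 at 23.3 CPM, and the Aurka level came mostly from cell 8. Cdkn1b was at 0.517 CPM in Glutamatergic 1 and 0.327 CPM in Glutamatergic 2 cells and at 10.4 to 60.2 CPM in the other labels. Ccnd2 reached 3372 CPM in Undefined cells, of which 117 CPM was left without Undefined cell 10.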

How the data were processed

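The authors deposited whole-number counts per gene and cell by Ensembl identifier and, of the same cells, by gene symbol, and normalized signal values for the 148 passed cells. Trimmomatic, STAR and featureCounts with build GRCm38 are named in the submitters' processing notes, with no versions; strand use is not given in the sources used here. The symbol table was held only in part (25 of 41 members, all with equal counts), so the Ensembl table (22880 rows) was used, with identifiers of 1 symbol summed. The deposited signal of the members was the counts over 1 factor per cell, within 0.1%. The members and lists were chosen with earlier results of these data known. Members named were Cenpf, those seen in at least 25% of cells of any label with 8 or more, and those past the fold with all cells kept. Intervals are exact Poisson and Clopper-Pearson. Alternatives covered scaling (the deposited values, and TMM of edgeR 4.0.16 under R 4.3.3), the pseudocount of 1 CPM, filters, thinning to 1500000 counts and left-out cells. Python 3.11.15, numpy 2.4.6, pandas 2.3.3 and scipy 1.17.1 were used, and the comparison was tested on simulated data.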

Additional observations from a re-analysis of the deposited data

Results flagged for a closer look

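In groups of 4 to 10 cells the highest or lowest cell was set against Dixon's 95% critical value. The measures were the number of mitosis members, the number of replication members and the Cenpf level. In all 13 sets of values, each 1 measure in 1 group, could be looked at, and for normally distributed values chance marks about 1 in 20. Where all other cells are at 0, any count in 1 cell is marked, so that rate does not hold for the Cenpf levels, and cells of 1 group may share an animal. GABAergic cell 2 (of 4 cells) held 15 mitosis members, the next highest 2, and its Cenpf level was 5.86 on the log2(CPM + 1) scale, where the others had 0. Among the 7 MGE-derived 2 cells of the Lhx6 line, cell 1 held 5 replication members, where the next had 2. Among the 8 VZ-derived cells of the Htr3a line, cell 5 had a Cenpf level of 2.06 (log2), from 19 counts, where the others had 0, and it held 11 of 13 microglia markers. In a cell that failed quality control and entered no comparison, failed cell 9 of the Htr3a line, Cenpf stood at 185 CPM (687 counts), above the 0.808 CPM that 3 counts make there; it held 0 Cajal Retzius markers and 10 of 12 pan-neuronal markers at 5 CPM or more.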

How the results depend on the processing

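The log2 difference of Cenpf stayed between 5.20 (pseudocount 10 CPM) and 10.5 (0.1 CPM) under every alternative run, and the median of other mitosis members in a Cajal Retzius cell between 1 and 2. Counts of members past the fold moved with the setting, and the cause was not tested. The share of all genes past the fold moved with each of them, and is given after the members' counts. With a pseudocount of 10 CPM Cajal Retzius cells had 4 higher and 0 lower (all genes 12.4% and 2.59%), VZ-derived 2 and 0 (5.45% and 3.31%), GABAergic 2 and 0 (1.98% and 4.56%), Lhx6 0 and 3 (4.28% and 5.41%), and Nex 1 lower (7.30%). With 0.1 CPM there were 4 lower in Cajal Retzius (12.03%) and in VZ-derived cells (21.3%), 17 higher and 3 lower in GABAergic (14.8% and 21.4%), 27 lower in Lhx6 (35.6%), and 4 higher and 5 lower in Nex cells (19.8% and 30.3%). By summed counts, 10 of 35 were lower in Cajal Retzius (27.8%) and 19 of 37 in VZ-derived (32.3%), 20 of 38 higher in GABAergic (18.0%), 28 of 41 lower in Lhx6 (29.1%), and 4 higher and 8 lower of 24 in Nex cells (21.6% and 30.6%); there Mcm7 (-0.21) and Pcna (-0.23) in Cajal Retzius and Ccnd2 (-0.15) in VZ-derived cells reversed. A filter at 25% of cells left 0 lower in VZ-derived cells (15.7%). Without the highest cell of each group there were 3 lower in Cajal Retzius cells (9.83%), and 2 higher and 4 lower in VZ-derived cells (7.15% and 24%). Without cells with microglia markers there were 0 lower in Cajal Retzius (7.56%), 3 higher and 4 lower in VZ-derived (16.4% and 22.0%), 4 lower in GABAergic (22.97%), and 2 higher and 6 lower in Lhx6 cells (19.1% and 14.6%), where Mcm2 reversed (0.0135). With all 3 lines VZ-derived cells had 3 higher and 2 lower (11.5% and 11.4%), and GABAergic cells 3 higher (6.07%). The 15 cells with at least 5 mitosis members were 27 at any count, 34 at 3 or more members, 9 at 8 or more and 2 without cells with microglia markers. No paired analysis was possible because no test was made and each sample is 1 cell. A gene at 0 in a shallow cell may be present below its depth.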
